A study of Mus musculus with 32 samples.

Results

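The comparison concerned the tibialis anterior, a fast limb muscle, of Gaa-/- and WT mice at 9 months. Its members were the 4 arrays labelled Gaa-/- and the 4 arrays labelled WT at that age, 8 of the 32 arrays of a series that also holds both genotypes at 1.5, 4 and 6 months. The Gaa-/- mice carried the allele labelled GAA-KO 6neo/6neo, which disrupts Gaa in all tissues, both genotypes had the strain label B6/129, and no treatment was labelled. Their sex was not labelled. Total RNA of about 20 mg of preserved muscle was read on a 1-colour Affymetrix array, and every probe set with a gene symbol, 19291 in all, was compared. The question is which genes differ between the genotypes in the oldest animals of the series.

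Gaa encodes acid alpha-glucosidase, the enzyme that degrades glycogen inside lysosomes, and its deficiency causes Pompe disease. In skeletal muscle without the enzyme, glycogen collects in enlarged lysosomes, autophagic material builds up and fibres weaken and waste. Lysosomal genes are controlled in part by the transcription factors TFEB and TFE3, which bind the E-box CACGTG and its longer form TCACGTGA (the CLEAR element). Metallothionein genes respond to zinc through the metal response element, and many antioxidant genes respond to NRF2 through the antioxidant response element.

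The 250 bases before the start site were searched for these motifs on both strands in 15519 tested genes with a RefSeq promoter (build GRCm38.p6). The sequences below are stretches before the start of 6 genes that were higher in Gaa-/- at 9 months. They are written 5′ to 3′ on the gene's strand in lower case. Capitals mark only the motif named below for that gene, and other searched motifs are not marked. These genes were picked from the zinc, lysosome and antioxidant groups described further on because their window held a searched motif.
Mt2, chr8:94172368-94172614, plus strand: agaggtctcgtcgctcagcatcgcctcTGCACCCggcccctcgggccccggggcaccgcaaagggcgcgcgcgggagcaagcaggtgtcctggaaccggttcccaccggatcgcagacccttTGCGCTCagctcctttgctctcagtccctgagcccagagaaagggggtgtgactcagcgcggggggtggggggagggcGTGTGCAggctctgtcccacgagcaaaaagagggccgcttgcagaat
Mt1, chr8:94179026-94179088, plus strand: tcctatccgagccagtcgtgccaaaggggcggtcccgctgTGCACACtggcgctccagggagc
Ctsa, chr2:164833720-164833772, plus strand: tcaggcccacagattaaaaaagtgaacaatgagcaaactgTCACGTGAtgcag
Atp6v1a, chr16:44139344-44139431, minus strand: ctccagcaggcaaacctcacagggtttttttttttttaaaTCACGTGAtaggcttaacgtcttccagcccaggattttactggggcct
Lamp1, chr8:13159060-13159160, plus strand: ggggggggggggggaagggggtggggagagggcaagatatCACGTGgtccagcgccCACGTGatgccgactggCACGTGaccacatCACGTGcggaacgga
Gclm, chr3:122245383-122245471, plus strand: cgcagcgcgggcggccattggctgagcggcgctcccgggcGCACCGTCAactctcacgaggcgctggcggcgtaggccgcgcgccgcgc

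The capitals mark the core of the metal response element in Mt2 and Mt1, written TGCACNC or, in a form added after the data had been seen, TGCGCNC. They mark the CLEAR core in Ctsa and Atp6v1a, 4 E-boxes in Lamp1, and the antioxidant response element, TGACNNNGC, in Gclm, where the letters stand as the reverse complement, as in the last match of Mt2. Each CLEAR core also contains an E-box. The Mt2 stretch also holds an antioxidant response element in lower case. The Gclm stretch holds, as the reverse complement, a TGCGCNC core that overlaps the capitals and is not marked. Ctsa had 2 annotated start sites, and 1 of the 2 windows held the match. Of all 15519 genes with a promoter, 7.98% held an E-box in any of their annotated windows and 1.2% a CLEAR core. Either form of the metal response element core was held by 28.0% and the antioxidant response element by 12.3%. Among the 1024 genes higher both ways that had a promoter the shares were 11.4%, 2.15%, 32.3% and 15.4% in the same order, and among the 535 lower ones 8.6%, 1.31%, 34.6% and 15.7%. The TGCACNC form alone was held by 11.8% of all genes with a promoter and 10.6% of the higher ones. These matches describe letters in a window and were not tested as binding sites.

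All values are deposited log2 levels, and differences are Gaa-/- minus WT with the standard error from limma. Unless another age is named, a rise or fall is a level in Gaa-/- above or below WT at 9 months, not a change over time. The WT arrays at 9 months had the smallest mean spread of values of the 8 groups. Their standard deviation was 1.79, 1.83, 1.86 and 1.90 over the 4 WT arrays (mean 1.85 ± 0.045, SD) and 1.91, 1.88, 1.93 and 1.95 over the 4 Gaa-/- arrays (1.92 ± 0.026). The ranges overlap, since WT replicate 4 was more spread than Gaa-/- replicate 2, and the exact two-sided permutation test gave p = 0.0571. Group means at the younger ages ran from 1.93 to 1.99. Every comparison was therefore also made after a second quantile normalization across the 32 arrays, which gave each array a standard deviation of 1.93. A gene was called changed both ways when its adjusted p was under 0.05 with the same sign on both scales. The 3858 brightest genes had a median difference of 0.12 on the deposited values and -0.0045 after the second normalization, so small rises of bright genes depend on this choice.

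Gaa itself read 10.62, 10.69, 10.70 and 10.62 in WT and 6.86, 6.81, 6.90 and 6.91 in Gaa-/-. All 8 arrays fitted their labels, with a difference of -3.79 ± 0.13, 13.8-fold lower (adjusted p = 6.49e-20; exact two-sided permutation p = 0.0286, the smallest 4 against 4 arrays can give). The disrupted part of the gene was not given in the sources used here, so the place of the probe set relative to it is unknown. Genes that define skeletal muscle were bright in all 8 arrays. The summed level (the log2 of the sum of linear values) of 12 of them ran from 16.42 to 16.45 in WT and from 16.31 to 16.39 in Gaa-/-, without overlap, and 1 of the 12 was higher and 2 were lower both ways.

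At 9 months 1943 of 19291 genes (10.1%) were changed both ways, of which 1281 (6.64%) were higher and 662 (3.43%) lower in Gaa-/-. The counts of gene lists below are to be read beside these shares, which a short list reaches with few calls. On the deposited values alone 2299 genes (11.9%) passed, 1566 higher (8.12%) and 733 lower (3.80%). After the second normalization 2503 (13.0%) passed, 1384 higher (7.17%) and 1119 lower (5.80%). Rises outnumbered falls on both scales, by a smaller margin after the second normalization. The share called depended on level. Of the 3858 brightest genes 602 rose and 232 fell both ways, and of the 3859 dimmest 34 rose and 52 fell. A list of bright genes is therefore poorly matched by the share over all genes. Changes of at least 2-fold both ways were found in 183 higher genes (0.949%) and 41 lower genes (0.213%). The call both ways came with no overlap between the 4 Gaa-/- and the 4 WT values on either scale in 1384 genes (7.17%). With array spread as a covariate the count both ways was 1095, 680 higher and 415 lower. Leaving out Gaa-/- replicate 4 left 440 lower genes called both ways.

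**Figure D1:**
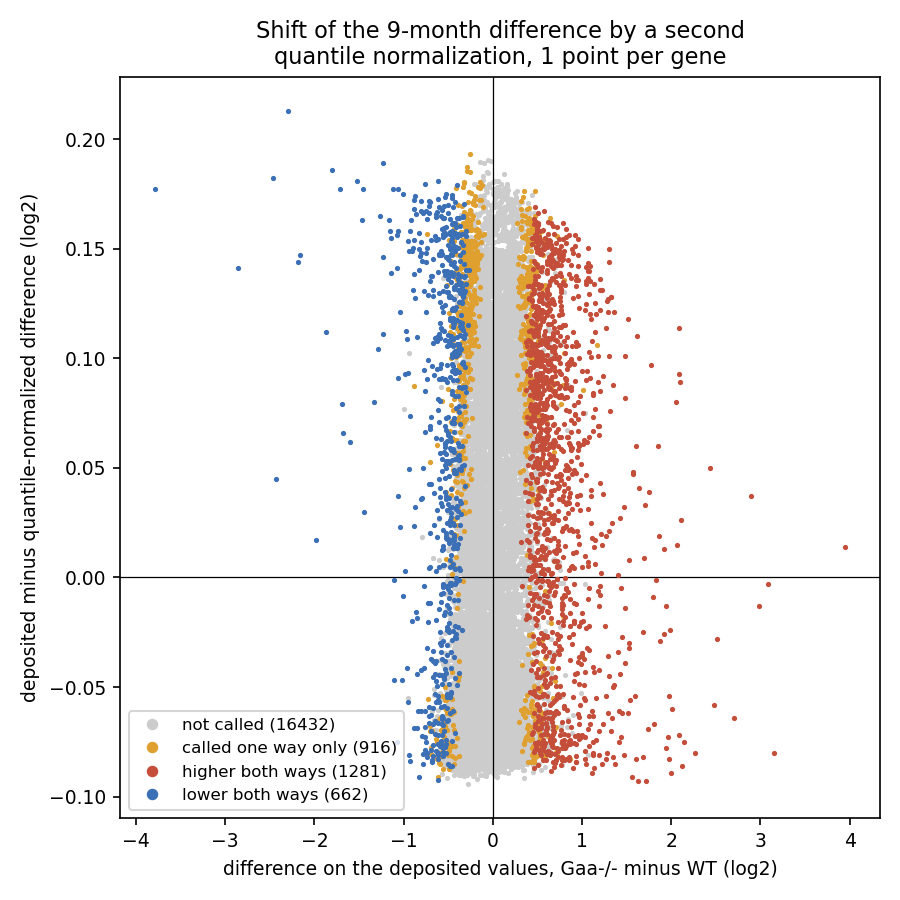
Each point is 1 of 19291 genes, with the 9-month difference on the deposited values on the x axis (log2) and the amount by which it exceeds the difference after the second quantile normalization on the y axis (log2). Red marks the 1281 genes higher both ways, blue the 662 lower both ways, orange genes called on 1 scale only and grey uncalled genes. The orange points lie along the border of the grey ones, and no called gene changed sign between the scales.

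The largest rise belonged to Mt2, a metallothionein that binds zinc and copper. Mt2 read 6.97, 7.19, 7.25 and 7.21 in WT and 10.87, 11.21, 11.12 and 11.22 in Gaa-/-. Every Gaa-/- array exceeded every WT array by over 3 log2 units, and the difference was 3.95 ± 0.28, or 15.5-fold (adjusted p = 1.06e-11). Map1a, which stabilises microtubules, read 5.28, 5.38, 5.82 and 5.64 in WT and 8.60, 8.70, 8.75 and 8.67 in Gaa-/-. Ncam1, the neural cell adhesion molecule that spreads over the surface of denervated fibres, read 6.35, 6.05, 6.86 and 6.47 in WT and 9.53, 9.50, 9.37 and 9.66 in Gaa-/-. Both genes were higher in all Gaa-/- arrays, Map1a by 3.15 ± 0.14 (adjusted p = 1.47e-16) and Ncam1 by 3.08 ± 0.14 (adjusted p = 1.47e-16). The protease inhibitors Serpinb1a and Serpina3n rose by 2.99 ± 0.21 and 2.44 ± 0.16. Serpinb1a was the more scattered in Gaa-/-, from 8.64 to 9.77, and ran from 6.04 to 6.32 in WT. Eda2r, the receptor of ectodysplasin A2, rose by 2.90 ± 0.27 (adjusted p = 2.75e-09).

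The other leading rises joined cytoskeleton, membrane and lipid genes. Cyfip2, a subunit of the WAVE complex that starts actin branching, read 5.71, 5.16, 5.88 and 6.14 in WT and 8.34, 8.51, 8.08 and 7.86 in Gaa-/-. Its groups do not overlap, and it rose by 2.48 ± 0.19 (adjusted p = 5.29e-11). Anxa4, a calcium-dependent membrane-binding annexin, rose by 2.11 ± 0.21, and Plp2, a small membrane proteolipid, by 2.09 ± 0.14. Mustn1, a small nuclear protein of the musculoskeletal system, rose by 2.09 ± 0.18 from an already bright level of 8.39 ± 0.24 (SD, n = 4). Cers6, a ceramide synthase, rose by 2.27 ± 0.28. Ttc9 (2.70 ± 0.22), the pleckstrin homology protein Plekho1 (2.51 ± 0.15), the small GTPase Rasd2 (2.15 ± 0.23) and the transcription factor Klf5 (2.12 ± 0.34) completed the 15 largest. No background level was measured. The lowest median of an array was 5.66, and where the dimmer genotype averaged less than that the fold is best read as a lower bound. Among the rises these were Map1a, Ttc9, Cers6, Rasd2 and Klf5.

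Aqp4, the water channel of the fast fibre membrane, fell most after Gaa. Aqp4 read 7.06, 7.94, 7.99 and 7.73 in WT and 4.67, 4.82, 4.76 and 5.04 in Gaa-/-, a fall without overlap. The difference was -2.86 ± 0.21 (adjusted p = 1.76e-11). Mstn, which encodes myostatin, the secreted inhibitor of muscle growth, read 7.54, 8.21, 7.09 and 8.23 in WT and 5.75, 4.84, 5.83 and 5.92 in Gaa-/-. Both groups were scattered but apart, with a difference of -2.18 ± 0.21 (adjusted p = 5.42e-09). Mss51, a gene of fast muscle linked to mitochondria, read 9.54, 9.46, 10.10 and 10.31 in WT and 7.35, 7.33, 7.31 and 8.22 in Gaa-/-. Replicate 4 of Gaa-/- lay above the other three, still under all WT arrays, and the difference was -2.30 ± 0.22 (adjusted p = 6.68e-09). The muscle lysine methyltransferases Mettl21e and Mettl21c fell by 2.43 ± 0.36 and 1.98 ± 0.29. Mettl21e varied widely in WT, from 5.67 to 7.85.

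Slc15a5, of the peptide transporter family, read 8.83, 8.88, 8.51 and 9.07 in WT and 6.33, 6.14, 6.60 and 6.36 in Gaa-/-. Its groups were more than 1 log2 unit apart, with a difference of -2.47 ± 0.19 (adjusted p = 5.56e-11). Tlcd3b, a TLC-domain protein (-2.16 ± 0.19), the RNA-binding protein gene Ybx2 (-1.87 ± 0.21), Lrtm1 (-1.80 ± 0.17) and Neto2 (-1.69 ± 0.30), a subunit associated with kainate receptors, were also among the 12 largest falls. Amd2 (-1.72 ± 0.18) is a near-identical copy of Amd1, the S-adenosylmethionine decarboxylase of polyamine synthesis, so its signal cannot be assigned to either copy. Folds of Aqp4, Mstn, Mettl21e, Mettl21c, Ybx2 and Neto2 are best read as lower bounds. RNA came from whole muscle, where fewer cells of a type and less RNA per cell cannot be told apart.

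**Figure D2:**
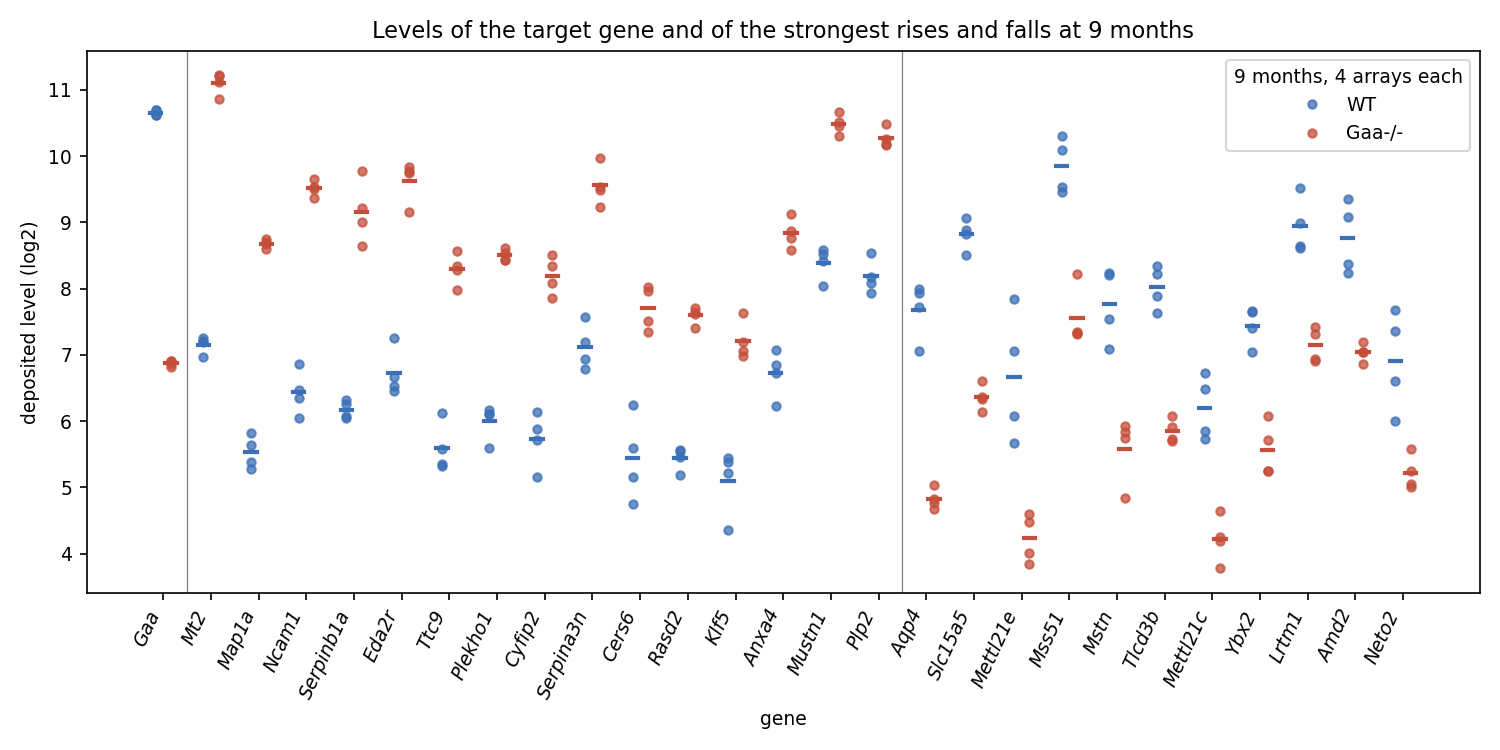
Deposited log2 levels (y axis) of Gaa, the 15 largest rises and the 11 largest other falls at 9 months (x axis), with 4 WT arrays in blue, 4 Gaa-/- arrays in red and a bar for each group mean. In each gene the 2 groups do not overlap, as the rule for choosing them required.

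Every gene of the lysosomal lists that was called both ways rose, but in the sorting list this was only 1 gene of 9. Over all genes 6.64% rose both ways. After the second normalization alone, 1 membrane gene and 1 V-ATPase subunit passed as lower. Of 12 lysosomal proteases 6 rose both ways and 0 fell, and their median difference was 0.61 (0.58 after the second normalization), against -0.030 over all genes on both scales. Lgmn, the asparaginyl endopeptidase legumain, read 8.19, 7.71, 8.23 and 8.13 in WT and 8.94, 8.78, 8.97 and 9.17 in Gaa-/-. Ctsa, the protective protein cathepsin A that stabilises other hydrolases, read 7.18, 7.39, 7.60 and 7.51 in WT and 8.14, 8.18, 8.17 and 8.19 in Gaa-/-. Neither gene overlapped between genotypes, and Lgmn rose by 0.90 ± 0.13 (adjusted p = 5.71e-06) and Ctsa by 0.75 ± 0.12 (adjusted p = 4.76e-05). The cathepsins Ctsz (0.80 ± 0.13), Ctsb (0.63 ± 0.12), Ctss (0.99 ± 0.22) and Ctsl (0.76 ± 0.18) were the other four.

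Among 25 other lysosomal hydrolases 9 rose both ways and 0 fell, with a median difference of 0.35 (0.26 after the second normalization). With array spread as a covariate 3 rose. Hexa, the alpha subunit of beta-hexosaminidase that degrades gangliosides, read 6.99, 7.32, 7.64 and 7.60 in WT and 9.32, 9.50, 9.51 and 9.42 in Gaa-/-. It rose most of the 9, by 2.05 ± 0.14 (adjusted p = 3.15e-12), 4.14-fold. Gm2a, the activator that presents gangliosides to that enzyme, rose by 0.69 ± 0.16. Ids, which removes sulfate from glycosaminoglycans, rose by 0.57 ± 0.11, Ppt1, which removes palmitate from proteins, by 0.60 ± 0.13 and Gusb, beta-glucuronidase, by 0.57 ± 0.13.

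In the lysosomal membrane 6 of 22 genes rose both ways and 0 fell (median 0.25, and 0.21 after the second normalization). Lamp1, the main glycoprotein of that membrane, read 10.10, 9.86, 10.15 and 10.07 in WT and 10.95, 10.92, 11.01 and 11.02 in Gaa-/-. All Gaa-/- arrays were higher, by 0.93 ± 0.095 (adjusted p = 2.02e-08), and the window before its start printed above held 4 E-boxes, 61, 45, 28 and 15 bases upstream. Cd63, a tetraspanin of late endosomes, rose by 1.05 ± 0.13, Tmem192 by 0.99 ± 0.11 and Lamp2, needed for the fusion of autophagosomes, by 0.59 ± 0.10. Of 17 subunits of the V-ATPase, the pump that acidifies lysosomes, 8 rose both ways and 0 fell (median 0.48, and 0.39 after the second normalization). Atp6v0a1, of its membrane sector, read 8.15, 8.29, 8.55 and 8.62 in WT and 9.53, 9.39, 9.39 and 9.61 in Gaa-/-, a rise of 1.08 ± 0.13 without overlap (adjusted p = 3.25e-07). Atp6v0e rose by 1.07 ± 0.19, and Atp6v1a, the catalytic subunit, by 0.70 ± 0.13. With array spread as a covariate 5 subunits were higher and 1 lower. Among risen lysosomal genes with a promoter sequence, an E-box was found in 3 of 5 proteases and 0 of 8 other hydrolases. It was found in 1 of 6 risen membrane genes and 1 of 5 risen V-ATPase genes. Over all members with a promoter, risen or not, the counts were 4 of 10, 4 of 22, 4 of 18 and 2 of 11. The share over all tested genes with a promoter was 7.98%, and whether the motif goes with the rise was not tested. Of 9 genes of lysosomal sorting 1 rose, the mannose-6-phosphate receptor gene M6pr (0.51 ± 0.12), and the list median changed sign with the scale (0.12, and -0.015 after the second normalization).

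Of 31 genes of the autophagy machinery 2 rose both ways, Gabarap (0.46 ± 0.10) and Wipi1 (0.48 ± 0.12), and 0 fell, a share of rises near the 6.64% over all genes. After the second normalization alone 2 of the 31 passed as lower. Of the 2 rises 0 were called in all 16 alternatives other than the filter on dim genes. Of 11 autophagy receptors 1 rose, Sqstm1, which encodes the cargo receptor p62, and 1 was lower after the second normalization alone. Sqstm1 read 10.22, 10.28, 10.02 and 10.11 in WT and 10.75, 10.86, 10.84 and 10.94 in Gaa-/-, a rise of 0.69 ± 0.090 without overlap (adjusted p = 1.77e-06). Among 26 genes of TFEB and mTORC1 signalling 4 rose and 1 fell both ways. Rragc, a GTPase that recruits mTORC1 and TFEB to the lysosome, read 7.05, 7.38, 7.52 and 7.50 in WT and 8.49, 8.12, 8.68 and 8.75 in Gaa-/-. It rose by 1.15 ± 0.17 (adjusted p = 1.88e-05), and the inhibitor of mTOR Deptor fell by 0.70 ± 0.16 (adjusted p = 0.00369). The level of Tfeb, singled out after its values were seen, differed by -0.17 ± 0.12 (adjusted p = 0.396). Of 11 genes of galectins and lysosome damage 4 rose both ways and 0 fell, among them the sugar-binding Lgals1 (0.74 ± 0.12), Lgals8 (0.60 ± 0.17) and Lgals3 (0.61 ± 0.18), and Pdcd6ip (0.64 ± 0.13), an adaptor of membrane repair. The call of Lgals8 was lost without WT replicate 1 or 2 or Gaa-/- replicate 4, and that of Lgals3 without WT replicate 1 or 3 or Gaa-/- replicate 4. After the second normalization alone 1 gene of the galectin list passed as lower.

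In glycogen turnover in the cytosol most calls were falls. Of 19 measured genes 8 fell both ways and 1 rose, with a median difference of -0.16 (-0.19 after the second normalization). Phkg1, the catalytic subunit of the kinase that activates glycogen phosphorylase, read 10.88, 10.71, 10.75 and 10.77 in WT and 9.51, 9.63, 9.63 and 9.75 in Gaa-/-. This was the clearest fall of the group, by 1.14 ± 0.090 (adjusted p = 9.58e-11) with no overlap. Pygm, the muscle glycogen phosphorylase, read 13.13, 13.11, 13.14 and 13.13 in WT and 12.64, 12.84, 12.79 and 12.75 in Gaa-/-. Its fall was small but without overlap, by 0.37 ± 0.074 (adjusted p = 0.000784), at a level near the top of the scale. Phkb, the regulatory beta subunit of the same kinase, fell by 0.68 ± 0.13, and the phosphoglucomutase Pgm1 by 0.55 ± 0.093. Gys1, glycogen synthase, singled out after its values were seen, fell by 0.27 ± 0.093 (adjusted p = 0.0490), a call lost in 7 of the 8 fits with 1 array left out.

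Gbe1, the glycogen branching enzyme, was the 1 gene of the list that rose. Gbe1 read 7.37, 7.71, 7.61 and 7.50 in WT and 8.64, 8.46, 8.78 and 8.52 in Gaa-/-, a rise of 1.05 ± 0.11 without overlap (adjusted p = 5.67e-08). In glycolysis and glucose uptake 5 of 19 genes fell and 3 rose both ways (median -0.14, and -0.27 after the second normalization). The falls included Pfkm, the phosphofructokinase of muscle (-0.46 ± 0.084), its activator enzyme Pfkfb3 (-1.07 ± 0.24) and Slc16a3, the exporter of lactate (-0.82 ± 0.13). The rises were Slc2a1, the basal glucose transporter, Hk1, a hexokinase (0.89 ± 0.21), and Ldhb, a lactate dehydrogenase subunit. The call of Ldhb was lost without WT replicate 1 or 2. With array spread as a covariate the calls of Hk1 and Ldhb were lost, and 1 of the 19 genes rose and 6 fell. Slc2a1 read 6.93, 7.11, 7.28 and 7.04 in WT and 8.42, 8.81, 8.70 and 8.86 in Gaa-/-. It rose 3.05-fold, by 1.61 ± 0.19 (adjusted p = 2.41e-07), with every Gaa-/- array above every WT array.

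**Figure D3:**
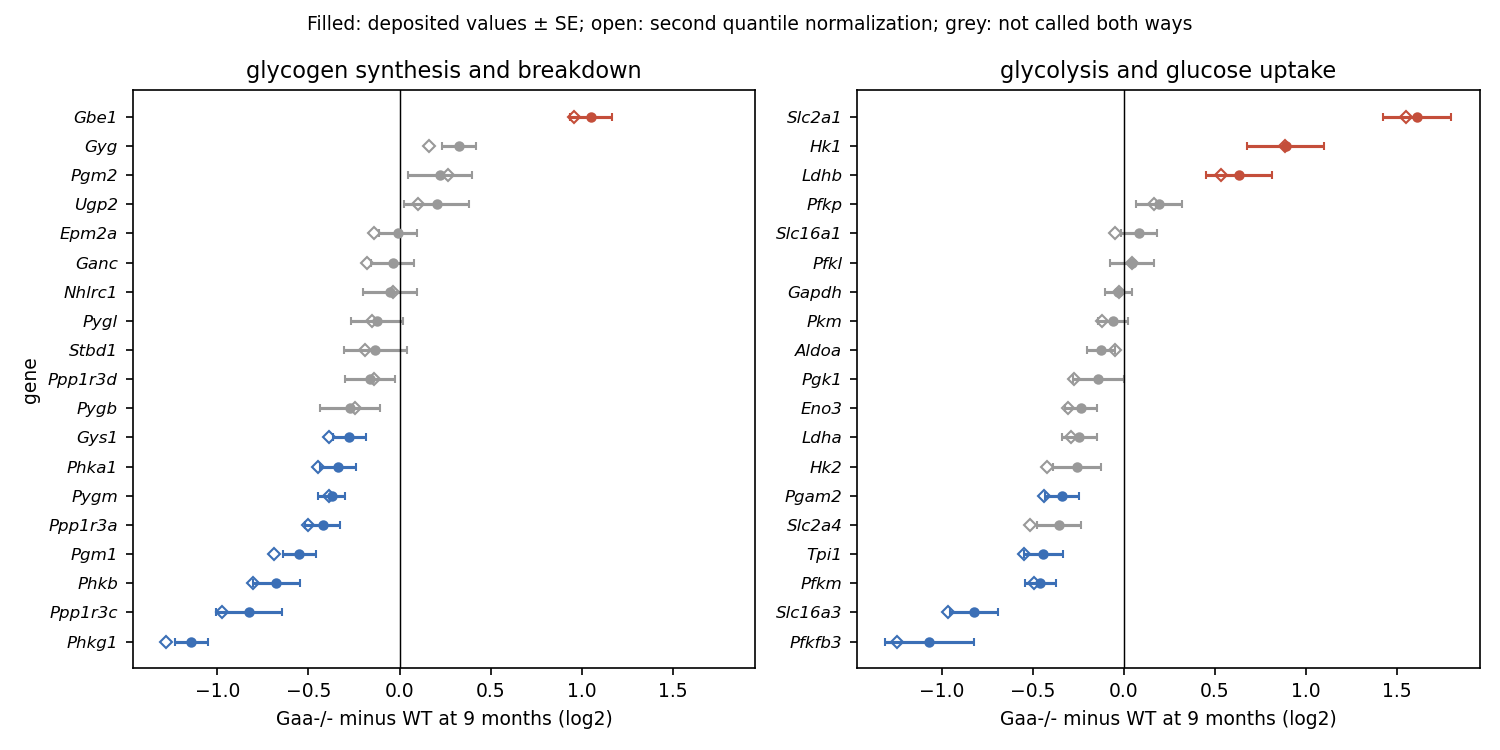
Difference between Gaa-/- and WT at 9 months (x axis, log2) of the 19 measured genes of glycogen turnover and the 19 of glycolysis and glucose uptake (y axis), as filled points with standard errors on the deposited values and open points after the second normalization. Blue marks falls both ways (8 and 5 genes), red rises both ways (1 and 3) and grey the rest.

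Of 10 genes of the purine nucleotide cycle and phosphagens 2 fell and 1 rose, beside 3.43% and 6.64% over all genes. Ampd1, the AMP deaminase of muscle fibres, read 9.87, 9.75, 9.72 and 9.46 in WT and 8.56, 8.55, 8.49 and 8.64 in Gaa-/-, a fall of 1.14 ± 0.12 without overlap (adjusted p = 5.17e-08). Ampd3, its isoform outside the adult fibre, rose by 0.82 ± 0.18 (adjusted p = 0.00285). In fatty acid uptake and oxidation 7 of 21 genes rose both ways and 0 fell, with a median of 0.32 (0.16 after the second normalization). Fabp3, the fatty acid carrier of heart and oxidative muscle, rose by 0.75 ± 0.16, and the acyl-CoA dehydrogenase Acadl by 0.57 ± 0.12. With array spread as a covariate 2 of the 21 were called. The tricarboxylic acid cycle had 0 of 18 genes called both ways by limma, with 3 at an unadjusted p under 0.05. After the second normalization alone 2 of the 18 passed as lower. Of 31 genes of respiratory complexes II to V 1 rose, Cox4i1 (0.39 ± 0.091).

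Of 30 subunits of the constitutive proteasome 11 rose both ways and 0 fell (median 0.33, and 0.23 after the second normalization), and 7 did with array spread as a covariate. Psmd6, of the regulatory lid, read 7.47, 7.78, 7.85 and 8.02 in WT and 8.69, 8.59, 8.68 and 9.04 in Gaa-/-. It rose by 0.97 ± 0.13 (adjusted p = 2.55e-06) without overlap, and the core subunits Psma3, Psma7 and Psma4 by 0.77 ± 0.13, 0.64 ± 0.11 and 0.65 ± 0.12. Of 10 genes of the immunoproteasome and MHC class I 1 rose, Psme2 (0.58 ± 0.13), beside 6.64% over all genes. Of 11 heat shock proteins and co-chaperones 4 rose, all of them small heat shock proteins. Hspb7, enriched in striated muscle, read 11.34, 11.69, 11.83 and 11.21 in WT and 13.02, 12.32, 12.98 and 12.99 in Gaa-/-. Replicate 2 was the lowest of the Gaa-/- arrays but above all WT arrays, and the rise was 1.31 ± 0.24 (adjusted p = 0.000236). Cryab, Hspb8 and Hspb1 rose by 1.12 ± 0.17, 1.07 ± 0.16 and 0.90 ± 0.16.

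All 3 measured metallothioneins rose, and 0 of the 8 zinc transport genes of the same list did. Mt1 read 8.87, 9.04, 8.89 and 9.19 in WT and between 10.88 and 11.33 in Gaa-/-, a rise of 2.09 ± 0.19 without overlap (adjusted p = 1.34e-09). Mt3, the form best known from brain, read 5.60, 5.32, 5.68 and 5.15 in WT and 7.33, 7.28, 7.34 and 7.72 in Gaa-/-. It rose by 1.98 ± 0.18 (adjusted p = 2.75e-09), again without overlap. The promoters of Mt2 and Mt1 hold the core letters shown above, 3 matches in Mt2 and 1 in Mt1, and the window of Mt3 held none. The median of the whole list was near 0 and changed sign with the scale (0.082, and -0.021 after the second normalization).

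In the NRF2 and antioxidant list 11 of 25 genes rose both ways and 1 was lower. Srxn1, which repairs oxidised peroxiredoxins, read 6.67, 6.57, 6.99 and 6.89 in WT and 8.43, 8.24, 8.44 and 8.55 in Gaa-/-. Nqo1, a quinone reductase and standard NRF2 target, read 6.03, 5.88, 6.52 and 6.85 in WT and 8.01, 8.09, 8.14 and 8.24 in Gaa-/-. Both were higher in every Gaa-/- array, Srxn1 by 1.64 ± 0.16 (adjusted p = 1.24e-08) and Nqo1 by 1.80 ± 0.19 (adjusted p = 5.33e-08). Gpx1 (0.75 ± 0.11), the thioredoxin Txn1 (1.05 ± 0.16), the glutathione reductase Gsr (0.88 ± 0.13) and Gclm, a subunit of the enzyme that starts glutathione synthesis (0.76 ± 0.15), rose as well. The list median was 0.20 (0.11 after the second normalization). The antioxidant response element was found in 6 of 21 genes of the list with a promoter, and in 2 of the 10 risen ones. In the integrated stress and unfolded protein response 2 of 25 genes rose, near the 6.64% over all genes. In the same list 2 fell, beside 3.43% over all genes. Xbp1 and the chaperone gene Canx rose by 0.79 ± 0.13 and 0.82 ± 0.15. Atf4, the transcription factor of the integrated stress response, read 9.32, 9.34, 9.23 and 9.38 in WT and 8.81, 8.61, 8.74 and 8.64 in Gaa-/-, and Chac1, one of its targets, fell with it. The falls were 0.62 ± 0.15 (adjusted p = 0.00678) and 1.07 ± 0.29 (adjusted p = 0.0128), the second call being lost without Gaa-/- replicate 3. Among 16 p53 targets 3 rose, Eda2r, Perp (0.79 ± 0.16) and the cell cycle inhibitor Cdkn1a (1.01 ± 0.25), and Polk fell (-0.66 ± 0.15).

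Genes of the neuromuscular junction and of denervation rose in 8 of 20 cases and fell in 1, with a median of 0.38 (0.29 after the second normalization). Chrnd, the delta subunit of the acetylcholine receptor, read 5.13, 4.94, 4.80 and 4.81 in WT and 6.83, 6.86, 6.72 and 7.16 in Gaa-/-. Its groups were far apart, with a rise of 1.97 ± 0.19 (adjusted p = 6.33e-09) from a level under the array median. The receptor subunit Chrna1 and the receptor kinase Musk, which organises the junction, rose by 1.03 ± 0.16 and 0.98 ± 0.16. Sln, sarcolipin, which inhibits the calcium pump of the sarcoplasmic reticulum, read 7.10, 6.96, 6.94 and 6.40 in WT and 8.83, 8.56, 8.69 and 8.70 in Gaa-/-, a rise of 1.85 ± 0.21 (adjusted p = 1.24e-07). Chrng, the subunit of embryonic and fully denervated fibres, singled out after its values were seen, differed by -0.086 ± 0.16 (adjusted p = 0.783). All 8 rises and the fall were also called in each of the 16 alternatives other than the filter on dim genes.

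Of 17 genes of satellite cells and regeneration 1 rose, a share near the 6.64% over all genes. It was Nes, an intermediate filament gene (1.07 ± 0.14, adjusted p = 1.06e-06). Pax7, the marker of satellite cells, and Myod1, of activated ones, both singled out after their values were seen, differed by 0.24 ± 0.15 (adjusted p = 0.304) and -0.19 ± 0.18 (adjusted p = 0.548). In myostatin and growth factor signalling 5 of 22 genes rose and 2 fell both ways, with a median of -0.13 (-0.20 after the second normalization). After the second normalization 5 passed as higher and 6 as lower. Only 1 rise and 1 fall were called in all 16 alternatives other than the filter on dim genes. Beside the fall of Mstn, the ligand Tgfb1 rose by 0.87 ± 0.13, Tgfb2 by 0.91 ± 0.20, their receptor Tgfbr2 by 0.52 ± 0.12 and Igfbp5, a binding protein of insulin-like growth factors, by 0.70 ± 0.16. Of 14 atrophy ligases and FOXO genes 3 rose, the translation repressor Eif4ebp1 (1.18 ± 0.17), the ligase Fbxo30 (0.84 ± 0.16) and Klf15 (0.57 ± 0.18, lost in 5 of the 8 fits with 1 array left out), while the list median changed sign with the scale (0.073, and -0.047 after the second normalization). The classical atrophy ligases Fbxo32 and Trim63 differed by 0.063 ± 0.20 (adjusted p = 0.879) and 0.32 ± 0.17 (adjusted p = 0.236).

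Among contractile genes 5 of 14 fast fibre genes fell and 0 rose both ways, and 3 of 14 slow fibre genes rose and 0 fell. Actn3, the Z-disc actinin of fast fibres, read 12.91, 12.84, 12.81 and 12.84 in WT and 12.13, 12.36, 12.18 and 12.31 in Gaa-/-. Pvalb, the calcium buffer parvalbumin, read 12.32, 12.41, 12.43 and 12.67 in WT and 11.86, 11.85, 11.87 and 11.98 in Gaa-/-. Both fell without overlap, by 0.61 ± 0.090 (adjusted p = 1.44e-05) and 0.57 ± 0.088 (adjusted p = 2.76e-05). The slow fibre rises were Casq2, the calsequestrin of slow fibres and heart (1.75 ± 0.19), Myoz2 (1.30 ± 0.22) and the calcium pump Atp2a2 (0.74 ± 0.13). Myosin heavy chains were less clear, and their sequences are so alike that signals may be shared. Myh2, of oxidative fast fibres, read 12.07, 11.99, 12.58 and 11.32 in WT and 13.52, 12.79, 13.27 and 13.07 in Gaa-/-. It passed on the deposited values (1.17 ± 0.37, adjusted p = 0.0337) but not after the second normalization (1.07, adjusted p = 0.0504), although the arrays do not overlap.

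Excitation-contraction coupling was split, with 5 of 19 genes higher and 4 lower. Cacnb1, the beta subunit of the voltage sensor, read 9.76, 9.70, 9.82 and 9.48 in WT and 10.66, 10.91, 10.75 and 10.84 in Gaa-/-, a rise of 1.10 ± 0.10 without overlap (adjusted p = 4.07e-09). Cacng1, its gamma subunit, and Mcu, the calcium uniporter of mitochondria, rose by 1.08 ± 0.12 and 0.85 ± 0.12. Jph1, which ties the transverse tubule to the reticulum, fell by 0.76 ± 0.077 (adjusted p = 1.71e-08). Of 10 ion and water channels 1 rose and 2 fell. Beside Aqp4, the small-conductance potassium channel genes moved apart, Kcnn3 rising by 1.69 ± 0.16 (adjusted p = 6.97e-09) and Kcnn2 falling by 1.61 ± 0.28 (adjusted p = 0.000108). Kcnn3 ran from 5.74 to 6.06 in WT and from 7.27 to 7.80 in Gaa-/-, and Kcnn2 from 6.13 to 6.95 and from 4.82 to 5.03.

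Membrane repair genes rose in 9 of 12 cases with 0 falls, with a median of 0.76 (0.62 after the second normalization). Dysf, dysferlin, which directs vesicles to membrane wounds, read 8.09, 7.93, 8.24 and 8.29 in WT and 9.02, 9.17, 9.17 and 9.44 in Gaa-/-. It rose by 1.06 ± 0.11 without overlap (adjusted p = 2.42e-08). The annexins Anxa4, Anxa2 (1.44 ± 0.17), Anxa6 (0.77 ± 0.096), Anxa5 (0.61 ± 0.17) and Anxa1 (0.56 ± 0.17), the annexin partners S100a4 (1.42 ± 0.16) and S100a10 (0.85 ± 0.18) and Trim72 (0.76 ± 0.13), which nucleates the repair patch, made up the rest. The call of Anxa5 was lost without WT replicate 1 or Gaa-/- replicate 3 or 4, and that of Anxa1 without WT replicate 1 or 2 or Gaa-/- replicate 1 or 4. Of 13 genes of the dystrophin complex 4 rose and 1 fell, led by Sspn, sarcospan (0.90 ± 0.10), and Cav3, the caveolin of muscle (0.76 ± 0.11). In stretch and Z-disc proteins 4 of 12 rose and 1 fell, with Xirp1, an actin-binding protein of damaged myofibrils, up by 1.33 ± 0.25.

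Of 21 tubulins and microtubule proteins 9 rose both ways and 0 fell, and of 18 actin regulators 7 rose and 0 fell. Tubb6, a beta-tubulin, read 6.25, 6.21, 5.91 and 6.29 in WT and 8.01, 7.66, 8.0 and 8.31 in Gaa-/-, and it rose by 1.83 ± 0.15 without overlap (adjusted p = 2.38e-10). Map1b, the relative of Map1a, rose by 1.33 ± 0.16. Among actin regulators Arpc2, of the branching complex, rose by 0.95 ± 0.14, and Cfl2, the muscle cofilin, by 0.76 ± 0.12. In ceramide synthesis 3 of 11 genes rose, Cers6, Cers5 (0.65 ± 0.13) and the desaturase Degs1 (0.70 ± 0.17). Of 8 polyamine genes 3 fell, Amd2, the spermine oxidase Smox (-0.88 ± 0.16) and the rate-limiting Odc1 (-0.56 ± 0.16, lost in 4 of the 8 fits with 1 array left out), and Azin1, which blocks the inhibitor of Odc1, rose by 0.88 ± 0.17. Of 7 serpins 3 rose, Serpina3n, Serpinb1a and Serpinb6a (1.13 ± 0.12).

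Of 25 markers of macrophages, which clear debris in damaged muscle, 16 rose both ways and 0 fell, with a median of 0.80 (0.78 after the second normalization), and 8 rose with array spread as a covariate. Their summed level ran from 10.07 to 10.31 in WT and from 10.80 to 11.26 in Gaa-/-. Lyz2, lysozyme, read 6.04, 6.71, 5.82 and 6.89 in WT and 7.99, 7.87, 8.56 and 8.73 in Gaa-/-. Mpeg1, a pore-forming protein of phagocytes, read 3.37, 4.12, 3.94 and 2.89 in WT and 5.50, 5.35, 5.47 and 5.99 in Gaa-/-. Neither overlapped, with rises of 1.92 ± 0.23 (adjusted p = 5.02e-07) and 1.99 ± 0.28 (adjusted p = 8.07e-06), the second of them from dim levels. The Fc receptor genes Fcgr2b and Fcgr3 and the chemokine receptor Ccr2 rose by 1.28 ± 0.21, 1.0 ± 0.18 and 1.61 ± 0.28. Adgre1, which encodes the macrophage antigen F4/80 and was singled out after its values were seen, differed by 0.041 ± 0.15 (adjusted p = 0.898). Several lysosomal genes above, such as Ctss, are also abundant in macrophages, and the part of these cells in the lysosomal rises was not tested.

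MHC class II genes rose in 5 of 6 cases, with a median of 0.94 (0.91 after the second normalization) and summed levels of 8.81 to 9.22 in WT and 9.88 to 10.13 in Gaa-/-. H2-Eb1 read 6.20, 6.55, 6.32 and 6.55 in WT and 7.49, 7.70, 7.38 and 7.94 in Gaa-/-, a rise of 1.22 ± 0.20 without overlap (adjusted p = 5.50e-05). Lymphocyte markers stayed dim, with 0 of 11 T and NK cell markers and 0 of 5 B cell markers called, 1 and 0 of them at an unadjusted p under 0.05, and 9 and 5 of them under the lowest array median in all 8 arrays. Of 8 neutrophil markers 1 rose, and 0 of 14 interferon response genes and 0 of 8 complement and acute phase genes were called by limma (1 and 3 at an unadjusted p under 0.05). Of 17 chemokines 2 rose, Cxcl10 (0.77 ± 0.16) and Ccl9 (1.0 ± 0.25). The rises among neutrophil markers and chemokines stand beside 6.64% over all genes.

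Matrix genes rose in 6 of 26 cases and fell in 2, and their summed level ran from 12.09 to 12.52 in WT and from 12.63 to 12.79 in Gaa-/-. Timp1, the inhibitor of matrix metalloproteinases, read 4.95, 5.02, 4.96 and 4.60 in WT and 6.99, 6.62, 7.02 and 7.22 in Gaa-/-. It rose by 2.08 ± 0.22 (adjusted p = 2.41e-08), and the collagen genes Col3a1 and Col6a3 by 1.20 ± 0.20 and 0.80 ± 0.15. Among 10 fibroblast and fibro-adipogenic markers 2 rose and 1 fell, and their median changed sign with the scale (0.055, and -0.014 after the second normalization). Their summed level ran from 11.98 to 12.34 in WT and from 12.34 to 12.63 in Gaa-/-. Lum, lumican, read 5.98, 6.25, 7.31 and 7.09 in WT and 8.40, 8.33, 8.15 and 8.53 in Gaa-/-, so the WT arrays were the scattered ones, and the rise was 1.70 ± 0.25 (adjusted p = 9.68e-06). Of 12 endothelial markers 0 were called by limma both ways (1 at an unadjusted p under 0.05), and their summed level ran from 11.57 to 11.67 in WT and from 11.43 to 11.59 in Gaa-/-. Of 11 smooth muscle and pericyte markers 2 rose, Cspg4 (0.69 ± 0.13) and Des (0.37 ± 0.088), the latter also a gene of muscle fibres. The summed level of the 11 ran from 12.72 to 12.83 in WT and from 13.02 to 13.07 in Gaa-/-. Schwann cell (8), blood cell (4), tendon (7) and other organ (8) markers had 0 calls both ways by limma, with 0, 0, 1 and 2 members at an unadjusted p under 0.05. Of 8 adipocyte markers 1 rose, Pparg (0.69 ± 0.22), whose call was lost in 6 of the 8 fits with 1 array left out.

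**Figure D4:**
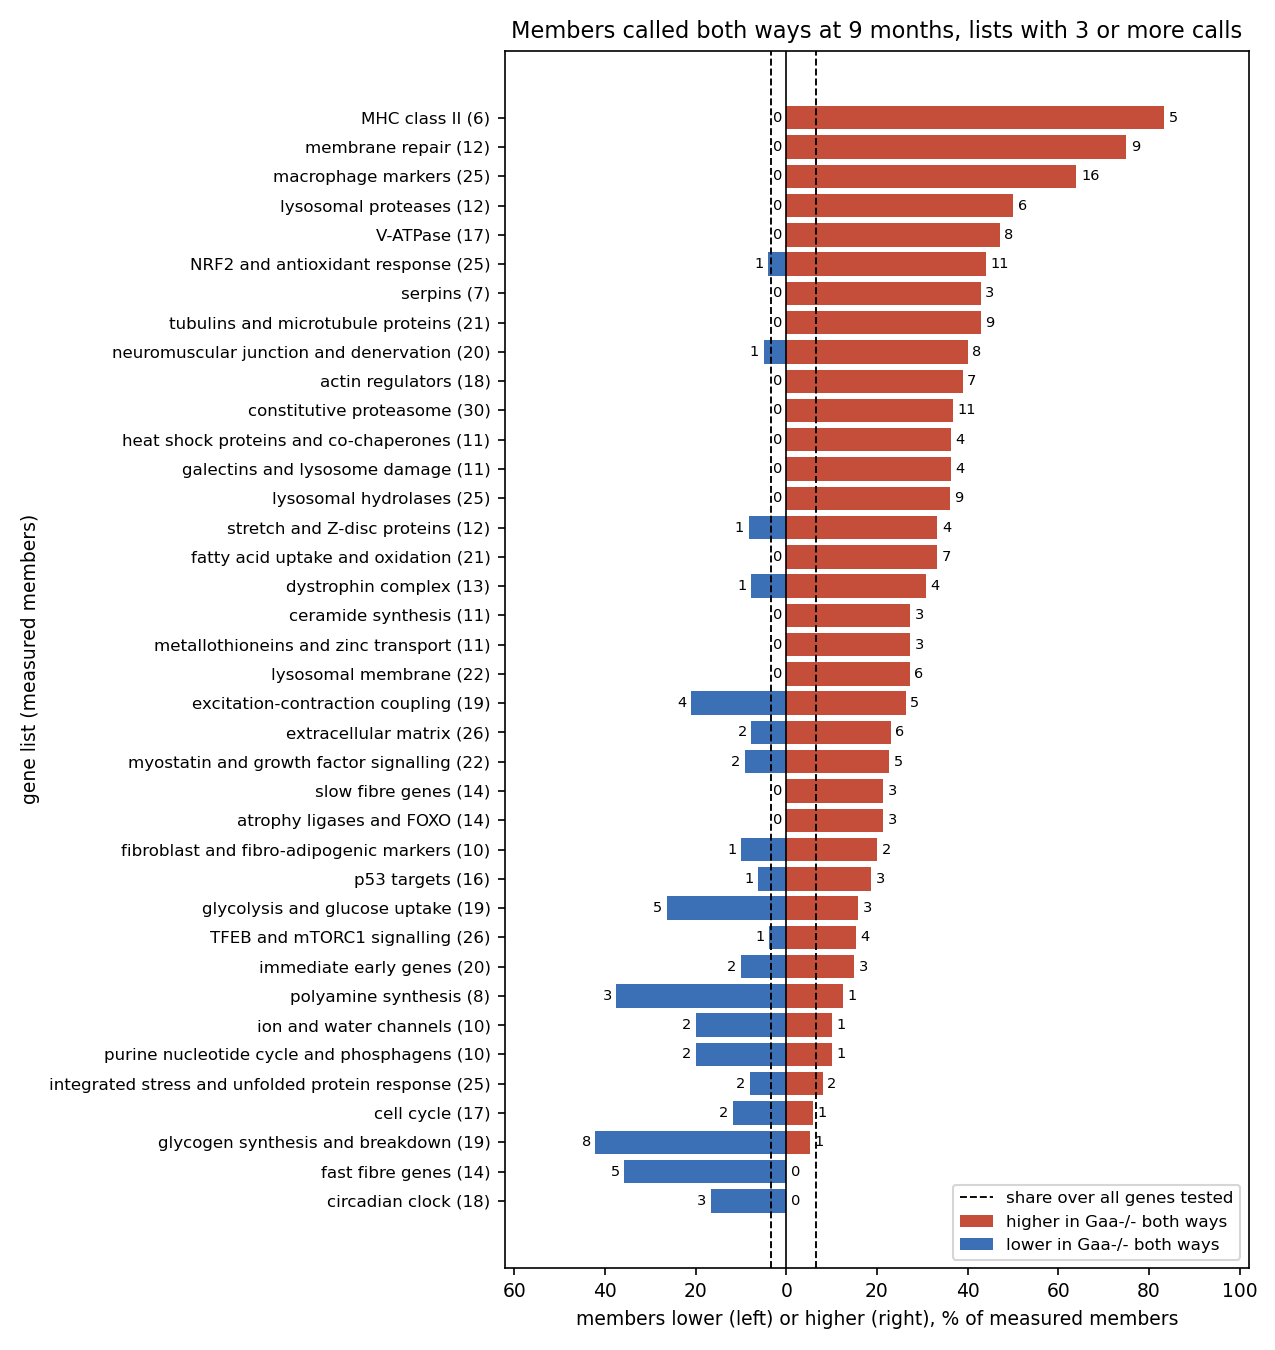
Share of measured members called both ways at 9 months (x axis, percent), lower to the left in blue and higher to the right in red, for each gene list with 3 or more calls (y axis, measured members in brackets); numbers beside the bars count the calls. Dashed lines give the share over all genes tested, 3.43% lower and 6.64% higher, and are not adjusted for the level of the listed genes.

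Genes that follow the hour or handling moved in both directions. Of 18 circadian clock genes 3 fell and 0 rose, namely Arntl (-0.65 ± 0.17), Nr1d1 (-0.62 ± 0.18) and Hlf (-0.72 ± 0.22), and 1 was lower with array spread as a covariate. The call of Arntl was lost without WT replicate 4, that of Nr1d1 without WT replicate 3 and that of Hlf in 6 of the 8 fits with 1 array left out. Of 20 immediate early genes 3 rose and 2 fell, Egr1 rising by 1.58 ± 0.42 and Junb by 0.91 ± 0.18, and Dusp1 and Nr4a1 falling by 0.95 ± 0.23 and 0.86 ± 0.23. The hour of sampling is not labelled, and its part was not tested. Of 17 cell cycle genes 1 rose and 2 fell, beside 6.64% and 3.43% over all genes.

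Of the genes that rose at a younger age, 68.8% to 70.3% were also called higher at 9 months. The 4 ages share no arrays. At 6 months 1122 genes (5.82%) were called both ways, 612 higher (3.17%) and 510 lower (2.64%), at 4 months 1003 (5.20%), 610 higher (3.16%) and 393 lower (2.04%), and at 1.5 months 665 (3.45%), 388 higher (2.01%) and 277 lower (1.44%). Of the 1281 rises at 9 months 430 (33.6%) were also called both ways at 6 months, which is 70.3% of the 612 rises at that age. The numbers were 427 (33.3% and 70%) against 4 months and 267 (20.8% and 68.8%) against 1.5 months. Of the falls at 9 months 238 of 662 (36.0%) were also called at 6 months, or 46.7% of the 510 falls there. At 4 months 180 falls were shared (27.2% and 45.8%) and at 1.5 months 76 (11.5% and 27.4%). Some calls were reversed. Of the rises at 9 months 11 were called lower at 1.5 months and 1 at 4 months. Of the falls at 9 months 1 was called higher at 1.5 months, and against 6 months 0 rises and 0 falls were reversed. Of the 15 largest rises at 9 months 14 were already called at 1.5 months and all 15 at 4 and at 6 months. Of the 11 largest falls other than Gaa 5 were called at 1.5 months, 10 at 4 months and 11 at 6 months.

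A call at one age and not another is no test of a difference, so the genotype differences themselves were compared. Between 9 and 6 months limma called 0 genes both ways (0%), with 2083 genes at an unadjusted p under 0.05 on the deposited values and 2031 after the second normalization. Against the mean difference of the 3 younger ages 117 genes (0.607%) were called both ways, 95 (0.492%) with a higher and 22 (0.114%) with a lower difference at 9 months. The deposited values alone gave 180 (0.933%), 152 higher (0.788%) and 28 lower (0.145%), and the second normalization 147 (0.762%), 105 higher (0.544%) and 42 lower (0.218%). The count rested on single arrays. It was 32, 38, 105 and 270 without WT replicates 1 to 4 and 43, 447, 37 and 41 without Gaa-/- replicates 1 to 4, and 35 with array spread as a covariate. Only 22 of the 117 were called in all 8 fits with 1 array left out.

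Of the 95 genes with a higher difference, the WT mean at 9 months lay below all younger WT means in 89 and the Gaa-/- mean above all younger Gaa-/- means in 61. The median change from the mean of the younger ages was -0.53 in WT and 0.23 in Gaa-/-, against 0.030 and 0.018 over all genes. The 9-month WT mean, from the group with the smaller mean spread, moved more than the Gaa-/- mean in 66 of the 95. Of the 22 with a lower difference the WT mean was above all younger WT means in 18 and the Gaa-/- mean below all younger ones in 17.

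Casq2, the calsequestrin of slow fibres, had the smallest p of this comparison. It read 6.72, 6.66, 6.85 and 6.94 in WT and 8.86, 8.09, 8.47 and 8.77 in Gaa-/- at 9 months. Its WT mean went down with age, from 8.058 at 1.5 to 7.642, 7.21 and 6.793 at 4, 6 and 9 months. The Gaa-/- means at these ages were 8.057, 7.753, 7.684 and 8.545. The genotype difference of Casq2 was -0.0011 at 1.5, 0.11 at 4, 0.47 at 6 and 1.75 at 9 months. It exceeded the younger mean by 1.56 ± 0.21 (adjusted p = 0.000653). Cyfip2 grew from 0.26 at 1.5 to 1.41, 1.58 and 2.48 at 4, 6 and 9 months, 1.40 ± 0.22 above the younger mean (adjusted p = 0.00110). Clip4 (0.77 ± 0.11), related to microtubule linkers, Fxyd6 (1.08 ± 0.16), a regulator of the sodium pump, the small GTPase Rras (0.90 ± 0.14) and the transcription factor Nfic (0.66 ± 0.10) also departed upward at 9 months. Of these Fxyd6 was lower in Gaa-/- at 1.5 months (-0.48, adjusted p = 0.0468) and higher at 9 months (1.05, adjusted p = 2.45e-06). Crhr2, the urocortin receptor, differed by -0.67, -0.76 and -0.25 at the younger ages, with a departure of 0.88 ± 0.14. Its own difference at 9 months was not called on either scale, at 0.33 ± 0.12 (adjusted p = 0.0671) and, after the second normalization with overlapping groups, 0.19 (adjusted p = 0.346). Mt3 went against the rest, with differences of 3.58, 3.17 and 3.27 at the younger ages and 1.98 at 9 months, a departure of -1.36 ± 0.21 (adjusted p = 0.00109). Mt2 and Mt1 had departures of -0.11 (adjusted p = 0.906) and -0.25 (adjusted p = 0.627).

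**Figure D5:**
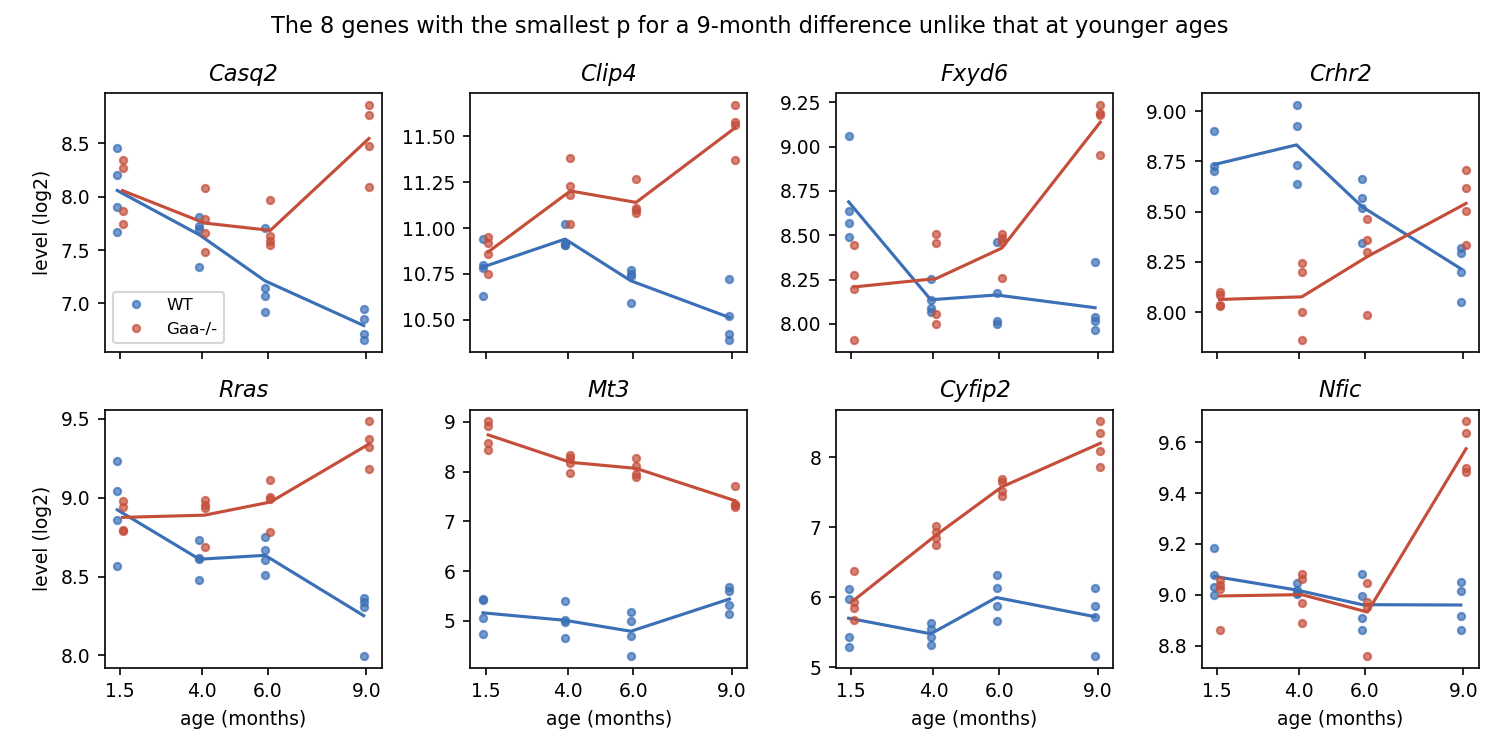
Deposited log2 levels (y axis) of 8 genes by age in months (x axis), with WT arrays in blue, Gaa-/- arrays in red and lines through the group means of 4 arrays. At 9 months the difference, Gaa-/- minus WT, was higher than at each younger age in 7 genes, among them Fxyd6 and Crhr2, which were lower in Gaa-/- at 1.5 months, and it was smaller in Mt3.

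Some genes passed on 1 scale only. Besides Myh2, Dnajc21 (1.01 ± 0.33), Rcan1 (0.80 ± 0.27) and B2m (0.79 ± 0.25) had the largest differences among those called on the deposited values alone, with adjusted p of 0.0560, 0.0677 and 0.0618 after the second normalization. On the deposited values the calls of Myh2, Rcan1 and B2m were each lost in 6 of the 8 fits with 1 array left out, and that of Dnajc21 in 5. Dnajc21 overlapped between genotypes, as Gaa-/- replicate 2 read 6.83 against 8.47 to 8.99 in the other three, and 6.53 to 7.92 in WT. B2m, the light chain of MHC class I, read 8.56, 8.94, 9.04 and 9.32 in WT and 9.76, 9.69, 9.87 and 9.73 in Gaa-/-, without overlap. Passing after the second normalization alone were Slc25a25, Mmp12, Sat1 and Acot2, with adjusted p of 0.0358, 0.0306, 0.0348 and 0.0418 there and of 0.0663, 0.0538, 0.0563 and 0.118 on the deposited values.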

How the data were processed

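Expression was measured on 32 Affymetrix arrays, and 8 of them, 4 labelled biological replicates of each genotype at 9 months, are compared here. The deposited values are log2 levels, made by the authors with RMA, which background-corrects, quantile-normalizes and summarizes probes, and with affy, per the submitters' processing notes. Versions and build were not given in the sources used here. Of 20079 probe sets 19291 had 1 gene symbol, 0 several and 788 none. The 19291 were fitted in limma 3.58.1 (R 4.3.3) with lmFit, 1 mean per group over all 32 arrays (24 residual degrees of freedom), contrasts and eBayes. Tests were two-sided, with Benjamini-Hochberg adjustment over 19291 genes and a threshold of 0.05. The fit was repeated after normalizeQuantiles. Arrays carry no read depth, so their number limits the precision. The script was tested on simulated data that held no difference in array spread between groups, so that test cannot show an effect of the spread.

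The members and gene lists were chosen with earlier results of these data known. Genes were named by rule: Gaa, the 15 largest rises and 12 largest falls called both ways without overlap, the 8 smallest p against younger ages, up to 5 members per list by p (all members where 15 or fewer were measured), and the 4 largest differences called on each scale alone. Exceptions are marked. List members without a probe set were not analysed here. Promoter sequences are from RefSeq (GRCm38.p6). The alternatives were scaling, array spread, a filter on dim genes, variance models, the replicate block and leaving out each array.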

Additional observations from a re-analysis of the deposited data

Results flagged for a closer look

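In 28 of 374 groups of 4 arrays (each gene named in the text, in each of 2 genotypes), 1 array lay far from the other three by Dixon's criterion, which chance gives in about 1 of 20 groups. Replicate 2 of Gaa-/- was the low array in Acot2 (7.30 against 7.82 to 7.93), Canx (7.93 against 8.69 to 8.83), Eda2r (9.16 against 9.75 to 9.83), Fbxo30 (7.15 against 7.65 to 7.75), Gsr (8.21 against 8.59 to 8.66), Hspb7 (12.32 against 12.98 to 13.02), Mstn (4.84 against 5.75 to 5.92), Pdk1 (8.15) and Psma3 (8.48 against 9.02 to 9.03). Replicate 4 of Gaa-/- was the high array in Anxa2 (7.81), Cd63 (10.19), Mss51 (8.22), Mt3 (7.72) and Pvalb (11.98). Replicate 3 of Gaa-/- was high in Ampd3 (8.42) and Egr1 (8.51), and replicate 1 was low in Fgfrl1 (8.68), Junb (7.46) and Nr4a1 (7.68). Among WT arrays replicate 4 was high in Arpc2 (9.42) and Cdkn1a (7.72) and low in Timp1 (4.60), replicate 1 was high in Musk (7.46), Perp (6.08) and Ucn (8.14), replicate 2 low in Hlf (5.22) and Rras (8.0), and replicate 3 low in Plekho1 (5.60). No value was left out for this reason.

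The genotype difference at 9 months departed from the mean of the younger ages, by limma's test of that difference, by 1.56 in Casq2, 0.77 in Clip4, 1.08 in Fxyd6, 0.88 in Crhr2, 0.90 in Rras, -1.36 in Mt3, 1.40 in Cyfip2 and 0.66 in Nfic. These 8 were chosen for their small p. Between the younger ages and 9 months the arrays also differ in spread, and all 8 departures were also called with array spread as a covariate.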

How the results depend on the processing

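Of the 1943 genes changed both ways, 988 were also called with array spread as a covariate, 965 in all 8 fits with 1 array left out, and 624 (455 higher, 169 lower) in all 16 alternatives other than the filter on dim genes. The second quantile normalization gave 1119 falls against 733. With array spread as a covariate the deposited values gave 1331 changed genes (785 higher), and 1095 both ways (680 higher, 415 lower), and 35 genes departed from the younger ages. The 8 arrays fitted alone gave 1031 genes (771 higher, 260 lower), 802 of them both ways (579 and 223), and 905 (599 and 306) when normalized together. The filter on dim genes gave 7 genes that differed between 9 and 6 months and 283 that departed from the younger ages, and the intensity trend 2 and 213. Leaving out 1 array gave 1572 to 2687 changed genes (1095 to 1838 higher, 477 to 892 lower), 1387 to 2200 both ways (942 to 1454 higher, 440 to 752 lower), 0 to 7 against 6 months and 32 to 447 against the younger ages. The cause was not tested. The difference of Gaa ranged from -3.99 to -3.77 over all alternatives.

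Of 175 named genes called on the deposited values 149 kept their call with array spread as a covariate, 144 when the 8 arrays were normalized together and 161 to 171 with 1 array left out. Among those lost with the covariate were Ampd3, Cdkn1a, Ctsl, Gm2a, Gusb, Hk1, Degs1, Tgfb2, Psme2, Wipi1 and Ccl9. Signs turned only in uncalled genes: Adgre1 (-0.032 with the covariate, -0.043 without WT replicate 4, -0.0017 without Gaa-/- replicate 3, and up to 0.088 without another array), Chrng (0.0016) and Tfeb (0.0043) with the covariate, and Fbxo32 (-0.068 and -0.066 after quantile normalization of 32 and of 8 arrays, -0.0069 without WT replicate 4 and up to 0.18 without another array). List medians moved by more than 1 SD in 28 of 59 lists with the covariate, 23 after the second normalization and 22 when the 8 arrays were normalized together.

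Replicate numbers are shared by all groups, but arrays of 1 number did not deviate together at 9 months (correlations from -0.078 to 0.23 over 4 pairs, with 1 WT and 1 Gaa-/- array closest to its own number). A replicate block gave 2325 changed genes, 1938 of them both ways, and 109 against the younger ages.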

Other observations

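Of the 117 genes whose genotype difference at 9 months departed from the younger ages, 21 were called in all 14 alternatives other than the filter on dim genes, 16 with a higher and 5 with a lower difference. The genes given here were picked from these after their values were seen. Idh2, the mitochondrial isocitrate dehydrogenase that makes NADPH, read 8.94, 8.22, 9.17 and 8.77 in WT and 10.48, 10.19, 10.51 and 10.38 in Gaa-/-. Its difference was -1.09 at 1.5, 0.16 at 4, 0.51 at 6 and 1.61 at 9 months, a departure of 1.75 ± 0.32 (adjusted p = 0.00602). Pdk1, a kinase that switches off pyruvate dehydrogenase, differed by -0.40, -0.018 and -0.31 at the younger ages and by 0.45 ± 0.12 at 9 months, a departure of 0.69 ± 0.13 (adjusted p = 0.00928). Coro6, a coronin that binds actin, departed by 1.02 ± 0.18 and Fgfrl1, a receptor-like protein for fibroblast growth factors, by 0.77 ± 0.13.

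Ucn, which encodes urocortin, a ligand of the receptor encoded by Crhr2, had a departure of the opposite sign. Ucn read 8.14, 7.46, 7.55 and 7.56 in WT and 7.04, 7.34, 6.82 and 6.58 in Gaa-/- at 9 months, without overlap. Its difference was 0.48, 0.29 and 0.17 at 1.5, 4 and 6 months and -0.73 ± 0.17 at 9 months, a departure of -1.04 ± 0.19 (adjusted p = 0.00665), where Crhr2 had a departure of 0.88. With array spread as a covariate the departures of Ucn and Pdk1 passed, but not their differences at 9 months.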
